A study of Homo sapiens with 4 samples.

Results

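The 26S proteasome is the protease that degrades ubiquitin-tagged proteins. Its 20S core is a stack of rings of alpha subunits, which gate the entrance, and beta subunits, of which PSMB5, PSMB6 and PSMB7 carry the catalytic sites. The 19S regulatory particle binds the ubiquitin chain and, through its ATPases, unfolds the substrate and opens the core. In cells exposed to interferon-gamma, and constitutively in immune cells, PSMB8, PSMB9 and PSMB10 are built into new cores in place of PSMB5, PSMB6 and PSMB7, and the PA28 activator made of PSME1 and PSME2 caps them. This immunoproteasome is known for cutting peptides that are then loaded on class I molecules.

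To examine the transcripts of this machine in hepatoma cells, all genes whose symbol was PSMA, PSMB, PSMC, PSMD, PSME, PSMF or PSMG followed by a number, together with the maturation protein POMP, were taken from the protein-coding rows of the expression files. This gave 47 of the 13036 listed genes. By role, 31 were constitutive subunits of the 20S and 19S particles, 5 were inducible subunits (PSMB8, PSMB9, PSMB10, PSME1 and PSME2), 3 were other regulators (PSME3, PSME4 and PSMF1) and 8 were assembly factors. The unit was FPKM, the fragments of a transcript divided by its length and by the mapped total, summed over the protein-coding rows of a gene, and a gene was tested when it reached 1 FPKM in at least 2 libraries. All 47 genes met this filter, among 11590 genes in total.

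RNA came from HCCLM3, an established human hepatoma line. Cells carried either a control hairpin (shCtrl, 2 libraries) or a stably integrated lentiviral hairpin against KIAA1429 (shKIAA1429, 2 libraries); both groups were otherwise given no agent in the labels. KIAA1429, now named VIRMA, is a member of the complex that writes N6-methyladenosine on RNA. The knockdown rested on a single hairpin sequence, and nothing in the labels says that the replicates were separate cultures, so the p-values measure the spread between these libraries, which may be technical. The question was whether proteasome transcripts differed when KIAA1429 was knocked down. With 2 libraries against 2, an exact permutation test of a single value cannot give a p below 0.333, so the main test was limma across all genes. The files hold no read counts, so the depth behind a value is unknown and no counting interval is given.

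Promoter sequences are shown because interferon elements are known to drive the inducible genes, and the choice of genes did not use them. RefSeq promoter windows on GRCh38.p14, from 250 bases before to 50 bases after each start, were at hand for 41 of the 47 genes (50 windows, since 8 genes had several starts); PSMA7, PSMB1, PSMB6, PSMB7, PSMD4 and PSMG3 were not in the table. The letters of the interferon-stimulated response element, GAAA, any 2 bases and GAAA, on either strand, occurred in 3.57% of all 35116 windows. Among the proteasome genes they occurred in 7 of 41, namely 4 of the 5 inducible genes, 2 of the 26 constitutive genes with a window (PSMA4 and PSMB4) and the chaperone PSMG4. PSMB9 had no match in its window. The 30 bases around each match are given below 5′ to 3′ on the strand of the gene, with the matched letters in capitals.
PSMB8 (chr6:32844032-32844061, minus strand): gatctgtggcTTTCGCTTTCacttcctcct
PSMB10 (chr16:67936852-67936881, minus strand): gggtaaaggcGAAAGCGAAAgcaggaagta
PSME1 (chr14:24136189-24136218, plus strand): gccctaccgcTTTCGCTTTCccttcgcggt
PSME2 (chr14:24146619-24146648, minus strand): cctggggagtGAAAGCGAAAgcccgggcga
PSMG4 (chr6:3258904-3258933, plus strand): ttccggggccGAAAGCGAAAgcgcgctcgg
PSMA4 (chr15:78540155-78540184, plus strand): atagtgaagaGAAAATGAAAggagagcgcc
PSMB4 (chr1:151399495-151399524, plus strand): tcgtctacagGAAAAAGAAAgaaatgacac

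The 4 inducible genes and PSMG4 shared the same 10 letters, read as GAAAGCGAAA or as its reverse complement TTTCGCTTTC, whereas PSMA4 and PSMB4 differed from them in the middle letters. In PSMB8 the match began 4 bases before the RefSeq start and, found again in GRCh37, 4 bases before the start of PSMB8-202, the row that carried most of the PSMB8 signal. In PSMB10 and PSME2 it began 21 and 28 bases before the RefSeq start, and in PSME1 at base 6 after it. Found again in GRCh37, the PSMB10 match lay 216 bases after the start of PSMB10-201, the only row of the gene, and so within the listed transcript. In GRCh37 the PSME1 and PSME2 matches lay within the spans of PSME1-201 and PSME2-201, the rows with most of each gene's signal. They began 1 base before PSME1-202 and 33 bases before PSME2-213. A second pattern, TGACNNNGC, the letters of an antioxidant response type element read by NFE2L1 and NFE2L2, occurred in 13.3% of all windows and in 15 of the 41 proteasome genes, among them 7 of 26 constitutive and 3 of 5 inducible genes. The STAT pattern TTCNNNGAA, occurred in 7.66% of all windows and in 7 of the 41 genes, with PSMB8 as the only inducible one. For every pattern, the share over all windows counted single windows, whereas a gene counted if any of its windows matched. Genes with several starts thus had more windows in which to match, and the shares are not like for like. The patterns are descriptions of letters, and occupancy was not measured.

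PSMB8, PSMB9, PSME1 and PSME2 also lay in neighbourhoods of related genes. In the positions given by the files (GRCh37), PSMB8 (chromosome 6, 32808494 to 32812480, minus strand) and PSMB9 (chromosome 6, 32821938 to 32827362, plus strand) flanked TAP1, the peptide transporter subunit, at distances of 505 and 182 bases. PSME1 (chromosome 14, 24605367 to 24608176, plus strand) and PSME2 (chromosome 14, 24612574 to 24616430, minus strand) lay 4397 bases apart. PSMB10 lay on chromosome 16 (67968405 to 67970990, minus strand), which also holds PSMD7 (74330673 to 74340186, plus strand). The genes around PSMB10 were not examined.

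Before any proteasome level, the targeted gene was read. VIRMA (chromosome 8, 95499921 to 95565757, minus strand, GRCh37) stood at 9.02 and 14.1 FPKM in shCtrl replicates 1 and 2 and at 5.81 and 8.52 FPKM in shKIAA1429 replicates 1 and 2. Both knockdown libraries were below both controls, with a log2 fold change of -0.61 (SE 0.28) that did not pass the test (limma, adjusted p = 0.924). Of the hepatocyte markers, KRT8, KRT18 and SERPINA1 were among the listed rows, the keratins at 971 to 1170 FPKM and SERPINA1 at 3.34 to 5.63 FPKM; ALB, AFP, APOA1, APOB, TTR and HNF4A were not among the rows used here, which hold only transcripts above a low level in at least 1 library. The markers seen were thus mainly epithelial keratins.

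Proteasome transcripts were abundant in HCCLM3 cells, with levels that differed widely between subunits that share 1 complex. PSMB4, a non-catalytic beta subunit, had the highest level of the 47 genes in every library, with a mean of 189 FPKM, above 98.2% of tested genes. PSMB3, PSMA7 and PSMD3 came next, at mean levels of 158, 145 and 132 FPKM, and held ranks 2 to 4 in all 4 libraries in varying order. Within the alpha ring, whose 7 subunits occur in equal number in the complex, mean levels ran from 12.5 FPKM for PSMA5 to 145 FPKM for PSMA7. PSMB4 exceeded PSMA5 by 13.7- to 16.8-fold within a library. The PSMA5 value depended on which rows were summed, since rows of PSMA5 that are not protein-coding held a further 27.0 FPKM on average.

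Levels of the 19S subunits also spread over a wide range. The 6 ATPases PSMC1 to PSMC6 ran from 13.5 FPKM (PSMC6) to 66.1 FPKM (PSMC3) and the 11 non-ATPase subunits from 9.59 FPKM (PSMD12) to 132 FPKM (PSMD3). PSMD4, a ubiquitin receptor, stood at 74.5 and 67.3 FPKM (shCtrl) against 73.9 and 69.8 FPKM (shKIAA1429), with overlapping groups. PSMD14, the deubiquitinase of the lid, stood at 33.4 and 35.7 FPKM (shCtrl) against 30.5 and 38.6 FPKM (shKIAA1429), with both control values inside the range of the knockdown. The 8 assembly factors were lower, with a median of 12.7 FPKM. POMP, which guides joining of the half-cores, stood at 28.7 and 37.5 FPKM (shCtrl) against 27.4 and 34.5 FPKM (shKIAA1429), with overlapping groups.

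**Figure D1:**
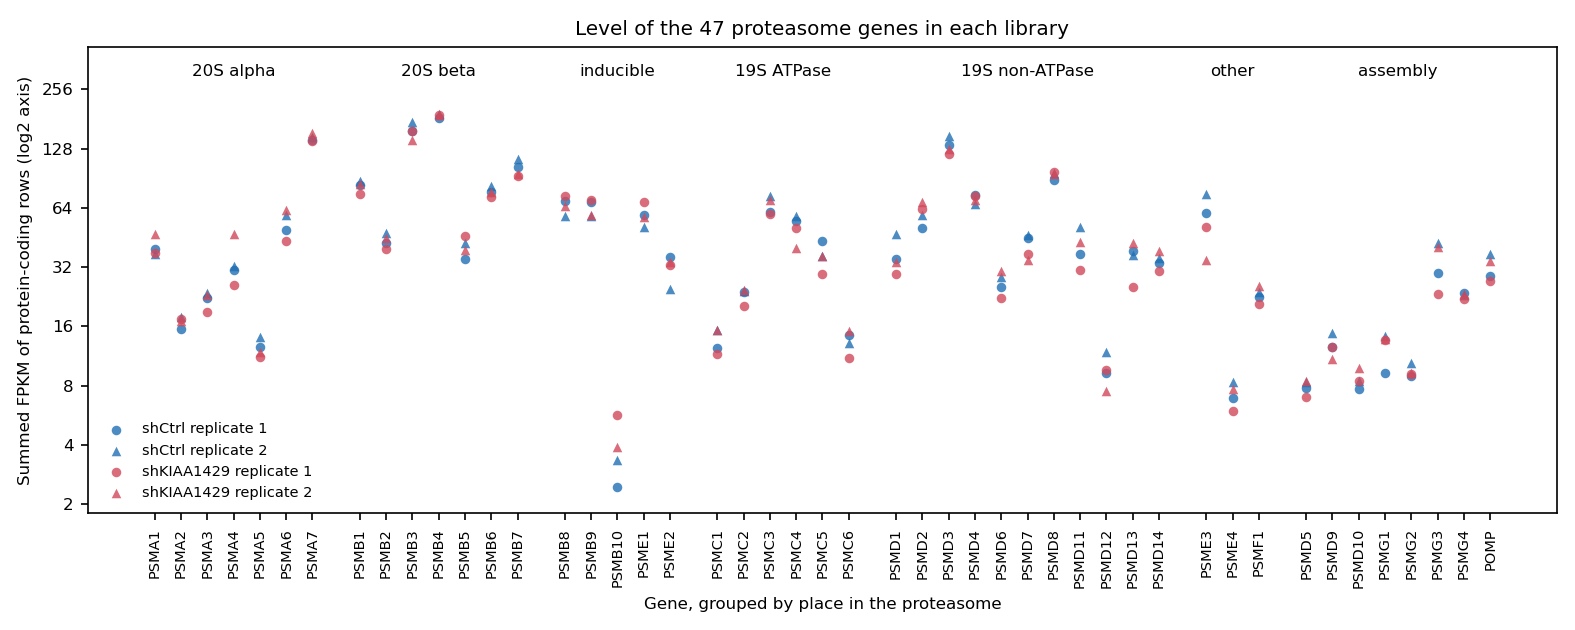
Summed FPKM of each of the 47 proteasome genes (log2 axis) in each of the 4 libraries, with genes grouped by their place in the complex. Most genes show 4 points close together; PSMB10 lies lowest, at 2.44 to 5.70 FPKM, and PSMB4 highest.

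Among the inducible subunits, PSMB8, PSMB9, PSME1 and PSME2 were expressed at levels like those of the constitutive core, while PSMB10 was far lower. PSMB8 stood at 69.2 and 58.2 FPKM (shCtrl) against 73.6 and 65.1 FPKM (shKIAA1429). PSMB9 gave almost the same values, 69.0 and 58.0 FPKM (shCtrl) against 70.4 and 58.6 FPKM (shKIAA1429). In both genes the groups overlapped and shCtrl replicate 2 was the lowest library. The ratio of PSMB8 to PSMB9 stayed between 1.00 and 1.11 in the 4 libraries, whereas that of PSMB8 to PSMB10 ran from 12.9 to 28.4.

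PSMB10 itself had 2.44 and 3.35 FPKM (shCtrl) against 5.70 and 3.92 FPKM (shKIAA1429), the lowest level of the 47 genes in every library and above 30.6% of tested genes. Both knockdown libraries were above both controls. The activator subunit PSME1 stood at 59.2 and 51.3 FPKM (shCtrl) against 69.0 and 57.5 FPKM (shKIAA1429), and its partner PSME2 at 35.8 and 24.7 FPKM (shCtrl) against 32.7 and 34.0 FPKM (shKIAA1429). The groups overlapped for both. PSMB9 and PSMB10 each had a single protein-coding row, so their levels did not depend on how fragments were shared among listed transcripts of the gene.

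The catalytic pairs were then compared within each library, where a scale common to all genes cancels. PSMB5, the constitutive counterpart of PSMB8, stood at 35.3 and 42.7 FPKM (shCtrl) against 45.9 and 39.0 FPKM (shKIAA1429), so PSMB8 made up 66.2% and 57.7% of the pair in shCtrl and 61.6% and 62.5% in shKIAA1429. The group means were 61.9% ± 6.04 and 62.0% ± 0.669 (SD, n = 2 each; exact permutation test, two-sided, p = 1). PSMB8 was thus the more abundant transcript of its pair in all 4 libraries. PSMB6, the counterpart of PSMB9, stood at 77.4 and 82.9 FPKM (shCtrl) against 73.1 and 76.8 FPKM (shKIAA1429). The PSMB9 share was 47.1% and 41.2% in shCtrl and 49.1% and 43.3% in shKIAA1429, below an even split in all 4 libraries, with overlapping groups (exact permutation test, p = 0.667).

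PSMB7, the counterpart of PSMB10, stood at 103 and 114 FPKM (shCtrl) against 93.1 and 95.3 FPKM (shKIAA1429). The PSMB10 share of this pair was 2.31% and 2.86% in shCtrl and 5.77% and 3.95% in shKIAA1429. Both members contributed to the gap, PSMB10 being higher and PSMB7 lower in both knockdown libraries, and the exact permutation p was 0.333, the smallest that the design allows. Over the 6 catalytic subunits together, the inducible share was 39.5% and 33.3% in shCtrl and 41.4% and 37.7% in shKIAA1429, with overlapping groups. Adjusted over these shares and those of the PA28 genes, 6 in all, no p passed the threshold, since none could.

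**Figure D2:**
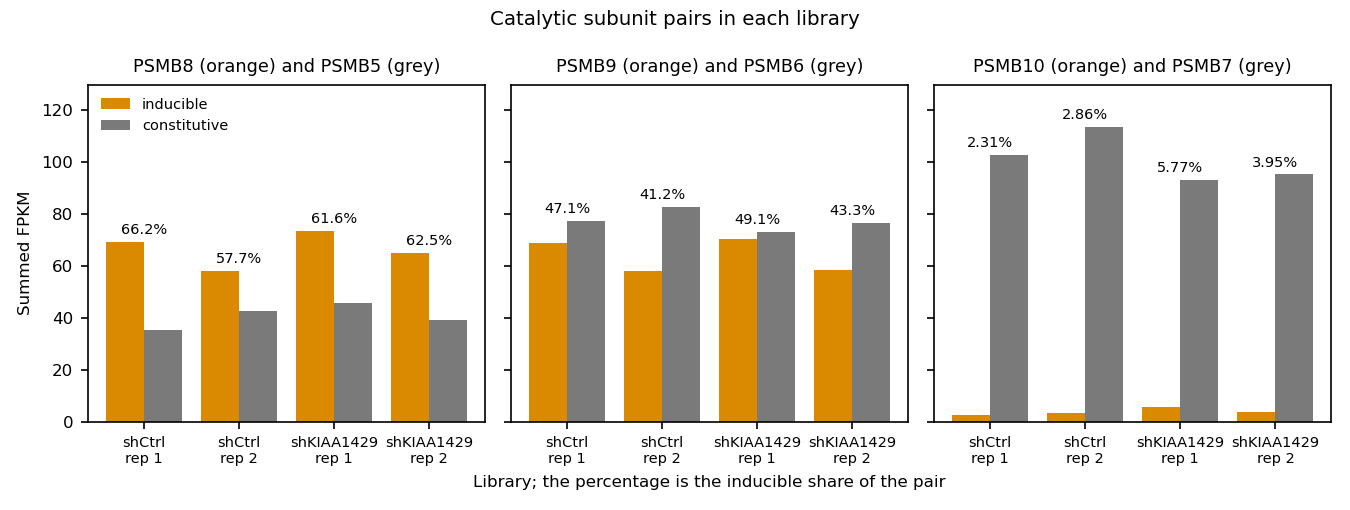
Summed FPKM of the inducible (orange) and constitutive (grey) member of each catalytic pair in each library, with the inducible share printed above the bars. PSMB8 exceeds PSMB5 in all 4 libraries, PSMB9 stays below PSMB6, and PSMB10 makes up 2.31% to 5.77% of its pair.

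The contrast of shKIAA1429 with shCtrl gave no proteasome gene past the thresholds (adjusted p under 0.05 with a log2 fold change beyond -1 or 1). Across all 11590 genes the same count was 0 in either direction (0%), with a lowest adjusted p of 0.240 over all genes and 0.863 over the 47 (limma, two-sided, Benjamini-Hochberg adjustment). At an unadjusted p under 0.05, 2 of the 47 genes were lower, PSMD7 and PSME3, beside 2.69% of all genes, and 0 were higher, beside 3.04%. No proteasome gene lay beyond -1 or 1 in log2 fold change, where 139 genes (1.2%) lay. For 44 of the 47 genes (93.6%) the 95% interval of the log2 fold change lay within -1 and 1, as it did for 83.2% of all genes, or 44 of 46 beside 85.1% among genes with a mean of at least 5 FPKM; the exceptions were PSMB10, PSME3 and PSMG3. Fold changes are on the log2(FPKM + 1) scale, which understates changes of low genes such as PSMB10.

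The direction of the small differences leaned to lower values in shKIAA1429 for the constitutive genes and to higher values for the inducible ones. Log2 fold changes were below 0 for 31 of the 47 genes (66%), beside 52% of all genes. The median was -0.09 over the 31 constitutive subunits, 22 of them below 0, and 0.16 over the 5 inducible subunits, all 5 above 0, beside -0.01 over all genes. By particle, the median was 0.03 for the 20S alpha subunits, -0.10 for the beta subunits, -0.10 for the ATPases, with 6 of 6 below 0, and -0.19 for the non-ATPase subunits, with 8 of 11 below 0. The median absolute log2 fold change of the 47 genes was 0.12 (0.14 over all genes), while their median gap between replicates was 0.16 in shCtrl and 0.23 in shKIAA1429.

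Single libraries carried much of this lean. Of the 31 constitutive subunits, 20 had their lowest value in shKIAA1429 replicate 1 and 16 their highest in shCtrl replicate 2. Of the 5 inducible subunits, 4 had their highest value in shKIAA1429 replicate 1 and 4 their lowest in shCtrl replicate 2. Without shKIAA1429 replicate 1 the median of the constitutive subunits was 0.02, and without shCtrl replicate 2 that of the inducible subunits was 0.00. The sum over the 47 genes was 2229 and 2385 FPKM (shCtrl) against 2143 and 2266 FPKM (shKIAA1429), or 0.602% and 0.637% against 0.549% and 0.593% of all listed FPKM.

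**Figure D3:**
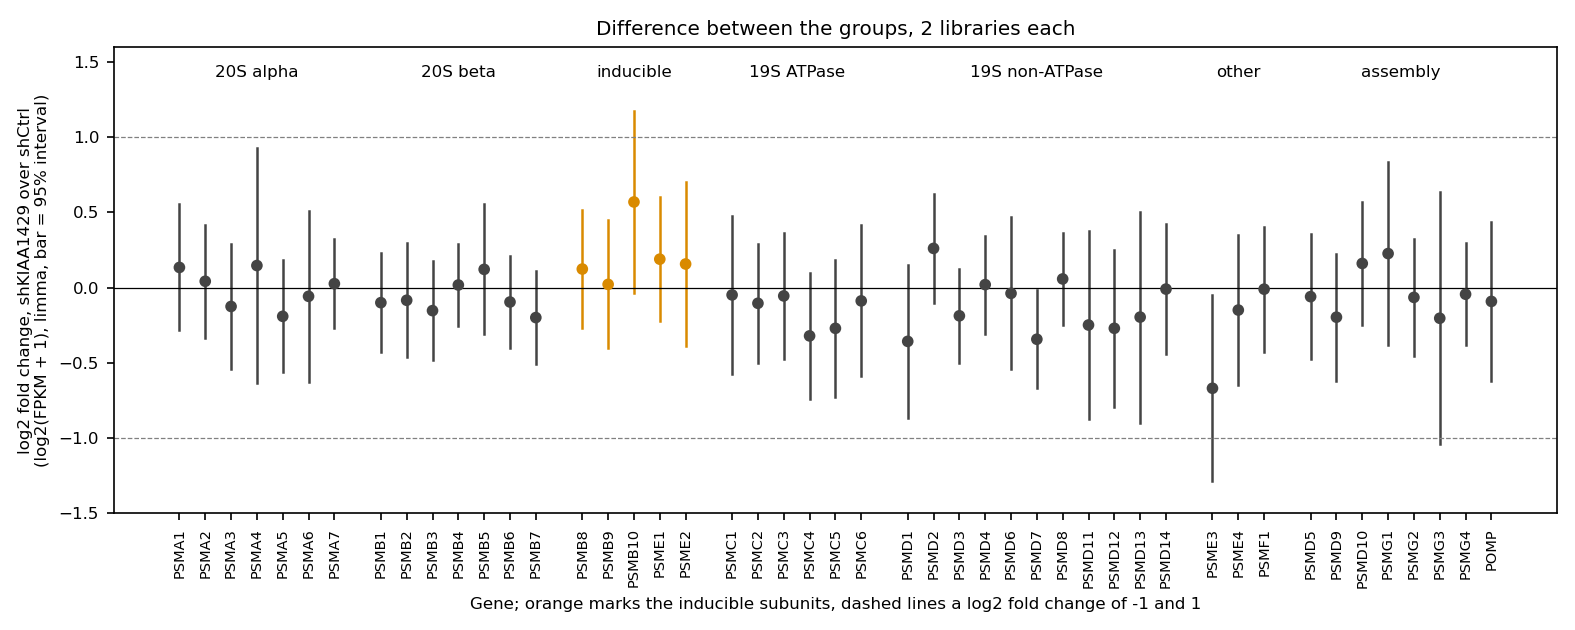
Log2 fold change of shKIAA1429 over shCtrl for each proteasome gene with its 95% interval from limma (2 libraries per group). The 5 inducible subunits (orange) all lie above 0 and the 6 ATPases all below 0, but 45 of the 47 intervals include 0; those of PSMD7 and PSME3 do not.

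Of the 47 genes, 8 (17%) had both knockdown libraries below both controls, beside 16.7% of all genes, and 2 (PSMB10 and PSMD2) had both above, also beside 16.7% of all genes. The 8 were PSMA5, PSMB6, PSMB7, PSMC4, PSMD1, PSMD3, PSMD7 and PSME3. PSMD7, a lid subunit that pairs with PSMD14, stood at 45.2 and 46.7 FPKM (shCtrl) against 37.3 and 34.8 FPKM (shKIAA1429). Its log2 fold change of -0.34 (SE 0.12) had an adjusted p of 0.863 in limma. PSMC4, one of the ATPases, stood at 54.6 and 58.5 FPKM (shCtrl) against 50.6 and 40.2 FPKM (shKIAA1429) (log2 fold change -0.32, SE 0.16, limma adjusted p = 0.935). Its lowest library was shKIAA1429 replicate 2, unlike that of most constitutive subunits, and without it the log2 fold change was -0.16.

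PSMD1, the scaffold of the 19S base, had values of 35.2 and 47.4 FPKM (shCtrl) against 29.5 and 34.1 FPKM (shKIAA1429), so its log2 fold change was -0.36 (SE 0.19, limma adjusted p = 0.943). Leaving out shCtrl replicate 2 gave -0.15, and leaving out shCtrl replicate 1 gave -0.57. PSMC5, another ATPase, had 43.3 and 36.3 FPKM (shCtrl) against 29.4 and 36.4 FPKM (shKIAA1429), where the groups overlapped (log2 fold change -0.27, and -0.12 without shKIAA1429 replicate 1). Among subunits with higher values, PSMD2, the second large base subunit, stood at 50.7 and 58.7 FPKM (shCtrl) against 63.0 and 68.2 FPKM (shKIAA1429), so both knockdown libraries lay above both controls. Its log2 fold change was 0.26 (SE 0.14, limma adjusted p = 0.943). PSMD8, a lid subunit, stood at 88.3 and 96.0 FPKM (shCtrl) against 97.1 and 94.8 FPKM (shKIAA1429), with overlapping groups and a log2 fold change of 0.06. PSMD10, an assembly chaperone also known as gankyrin, stood at 7.67 and 8.46 FPKM (shCtrl) against 8.42 and 9.89 FPKM (shKIAA1429), where the groups overlapped by a narrow margin (log2 fold change 0.16). PSMB10 had the largest positive value, 0.57 (SE 0.23, 95% interval -0.04 to 1.18, limma adjusted p = 0.880).

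PSME3 had the largest difference of all 47 genes. It encodes PA28 gamma, a nuclear activator of the 20S core that works without ATP or ubiquitin. Its level was 60.6 and 75.7 FPKM (shCtrl) against 51.3 and 34.7 FPKM (shKIAA1429), with both knockdown libraries below both controls and the lowest value in shKIAA1429 replicate 2. The log2 fold change was -0.67 (SE 0.24, 95% interval -1.29 to -0.05), with a limma adjusted p of 0.863. Set against PSME3, PSME1 and PSME2 made up 61.0% and 50.1% of the 3 PA28 genes in shCtrl and 66.4% and 72.5% in shKIAA1429 (exact permutation test, p = 0.333, the smallest possible). Within the pair, the PSME1 share of PSME1 and PSME2 was 62.3% and 67.5% in shCtrl and 67.9% and 62.8% in shKIAA1429, with overlapping groups. The other regulators gave smaller differences: PSME4, the large activator PA200, stood at 6.96 and 8.37 FPKM (shCtrl) against 5.96 and 7.73 FPKM (shKIAA1429), and PSMF1, the inhibitor PI31, at 22.6 and 24.0 FPKM (shCtrl) against 20.8 and 25.7 FPKM (shKIAA1429).

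To see which transcripts lay behind these sums, the rows of each gene were examined. The 47 genes had 167 listed rows, 146 of them protein-coding, and 7 genes had a single protein-coding row. The row with the highest value was the same in all 4 libraries for 39 genes, and another row led in at least 1 library for PSMA4, PSMA6, PSMC6, PSMD1, PSMD9, PSME3, PSMG1 and PSMG3. Tested row by row (24996 rows, 123 of them of proteasome genes), 0 rows passed both thresholds with limma, and 5 proteasome rows were lower and 1 higher at an unadjusted p under 0.05, beside 3.18% and 3.1% of all rows. Of the 123 proteasome rows, 9 (7.32%) lay beyond a log2 fold change of -1 or 1, beside 7.23% of all rows.

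Listed values of PSME3 shifted between rows in shKIAA1429 replicate 2. PSME3-201 stood at 40.7 and 54.1 FPKM (shCtrl) against 35.2 and 0.830 FPKM (shKIAA1429), while PSME3-210 stood at 7.12 and 7.29 FPKM (shCtrl) against 8.27 and 29.3 FPKM (shKIAA1429). Thus PSME3-201 made up 67.2% to 71.5% of the gene in 3 libraries and 2.39% in shKIAA1429 replicate 2, where PSME3-210 made up 84.2%. These rows span 3144 and 3182 exonic bases in GENCODE 44, and in the files they end at positions 40995774 and 40993595 of chromosome 17. Of these bases, 39 of PSME3-201 and 2 of PSME3-210 lie in no other listed row of the gene. How fragments were shared among the rows was not tested. PSME3-213, all of whose exonic bases also lie in other rows, was listed at 0 in shKIAA1429 replicate 2.

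Rows of several other genes also moved, some with the groups and some with single libraries. PSMG1-201 made up 52.6% and 43.7% of PSMG1, a subunit of an assembly chaperone, in shCtrl and 30.2% and 26.7% in shKIAA1429, with PSMG1-202 making up the rest. PSMD9-207 stood at 8.95 and 7.10 FPKM (shCtrl) against 5.03 and 3.85 FPKM (shKIAA1429), and PSMD10-204 at 1.36 and 1.58 FPKM (shCtrl) against 0.608 and 0.0339 FPKM (shKIAA1429). The groups did not overlap for these 3 rows, none of which passed the test (limma, lowest adjusted p of the 3 0.704). The 3 rows were chosen after their values were seen. Among all genes, 16.7% had both knockdown libraries below both controls, and the share over all rows was not counted. All exonic bases of PSMD10-204 also lie in other rows of the gene.

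PSMA4-213 stood at 25.1 FPKM in shKIAA1429 replicate 2 and between 0 and 0.711 FPKM elsewhere, and the summed PSMA4 level was highest in that library, at 47.3 FPKM against 26.1 to 32.3 FPKM. PSMA4-216 was listed at 6.81 and 5.69 FPKM in shCtrl and at 0 in both shKIAA1429 libraries, a separation by group with an adjusted p of 0.114 (limma); all exonic bases of this row also lie in other rows of the gene. PSMD1-202 and PSMD1-203 were listed at 0 in shCtrl replicate 2 alone, where PSMD1-201 reached 35.8 FPKM against 9.44 to 12.5 FPKM in the other libraries. PSMD1-205 held 9.59 FPKM in shCtrl replicate 2, 20.2% of the gene, against 0.176 to 0.431 FPKM elsewhere. Of its 761 exonic bases, 18 lie in no other listed row of PSMD1. The PSMC6 rows went with the replicate number: PSMC6-218 was listed at 0 in replicate 2 of both groups, and there PSMC6-201 held 13.2 and 12.3 FPKM against 4.45 and 4.26 FPKM in replicate 1. The summed PSMC6 level moved less, between 11.1 and 15.1 FPKM.

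**Figure D4:**
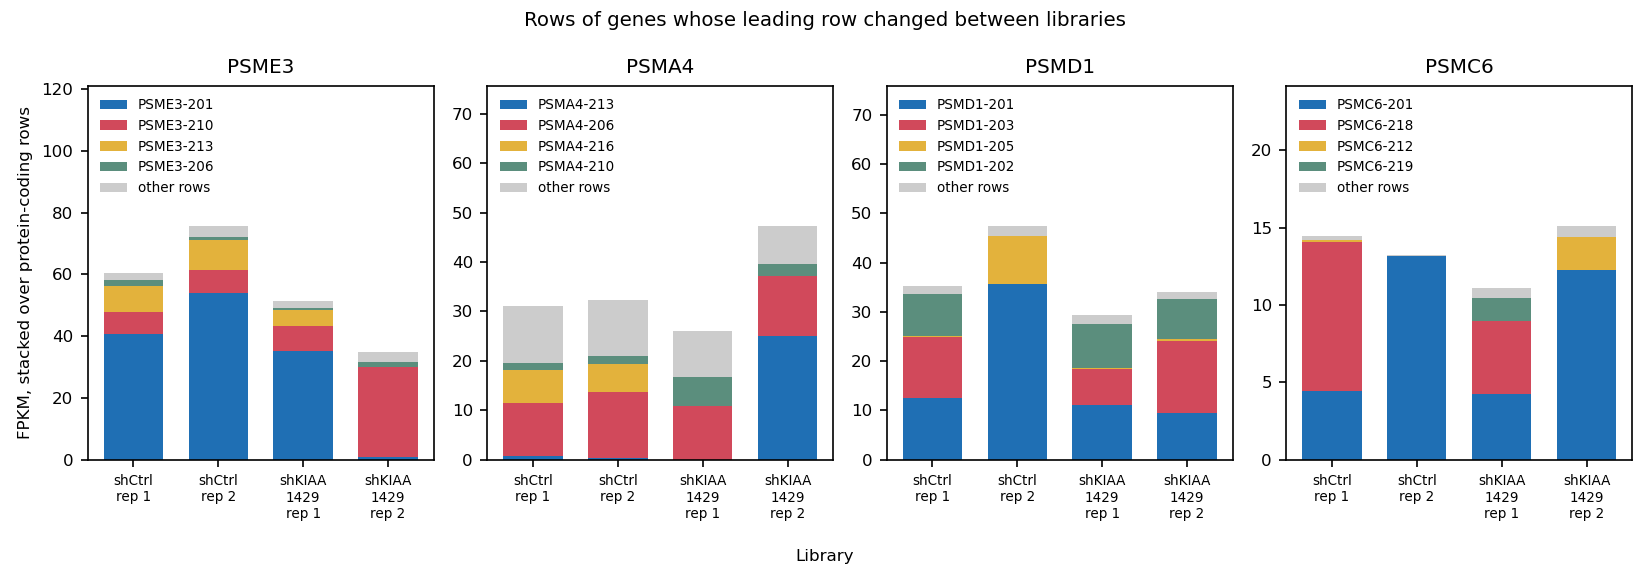
FPKM of the protein-coding rows of PSME3, PSMA4, PSMD1 and PSMC6, stacked for each library, with the 4 rows of highest maximum in colour and the rest in grey (each panel has its own scale). The leading row changes in shKIAA1429 replicate 2 for PSME3 and PSMA4 and with the replicate number for PSMC6, while the sums move less.

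The inducible subunits were set beside the genes known to act with them. Of 11 tested transcription regulators of subunit genes, none passed the test in either direction, and the median log2 fold change was -0.13. IRF1, a factor that binds interferon-stimulated response elements, stood at 21.8 and 16.5 FPKM (shCtrl) against 33.2 and 22.8 FPKM (shKIAA1429) (log2 fold change 0.51, SE 0.24, limma adjusted p = 0.931). IRF1 was thus higher in both knockdown libraries, as 16.7% of all genes were. NFYA (0.19) gave the next largest value above 0. NFYB, another subunit of the same CCAAT-binding factor, had a log2 fold change of -0.40. Its knockdown libraries were both below both controls, as for 16.7% of all genes.

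Of 14 class I presentation genes, none passed the test, and the median was -0.05 with 6 above 0 and 8 below. HLA-C stood at 8.22 and 4.79 FPKM (shCtrl) against 3.08 and 3.05 FPKM (shKIAA1429), and B2M, the class I light chain, at 20.9 and 14.6 FPKM (shCtrl) against 12.0 and 8.07 FPKM (shKIAA1429), so both genes were lower in both knockdown libraries. Of the 14 genes, 3 were lower and 2 higher in both knockdown libraries, beside 16.7% of all genes in each direction. The peptide-loading chaperone TAPBP (log2 fold change 0.21) and the trimming peptidase ERAP1 (0.17) had the largest values above 0. TAP1, the neighbour of PSMB8 and PSMB9, stood at 44.1 and 36.7 FPKM (shCtrl) against 40.7 and 33.4 FPKM (shKIAA1429). Like PSMB9, it had overlapping groups and higher values in replicate 1 of each group.

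Immune cells use the inducible subunits, so their markers were read as well. Of these markers, CD74, HLA-DRA, CIITA and CD14 were listed, while PTPRC, CD3E and LYZ were not among the rows used here. The median log2 fold change of the 4 listed genes was 0.50, all 4 above 0, and their sum was 202 and 174 FPKM (shCtrl) against 297 and 245 FPKM (shKIAA1429). The first 3, which belong to class II presentation, were higher in both knockdown libraries, as 16.7% of all genes were. Their order over the libraries was the one PSME1 and PSMB8 showed at the ends, highest in shKIAA1429 replicate 1 and lowest in shCtrl replicate 2; their part in the inducible values was not tested. In bulk RNA, a change in the number of cells of a kind and a change of RNA per cell cannot be told apart.

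**Figure D5:**
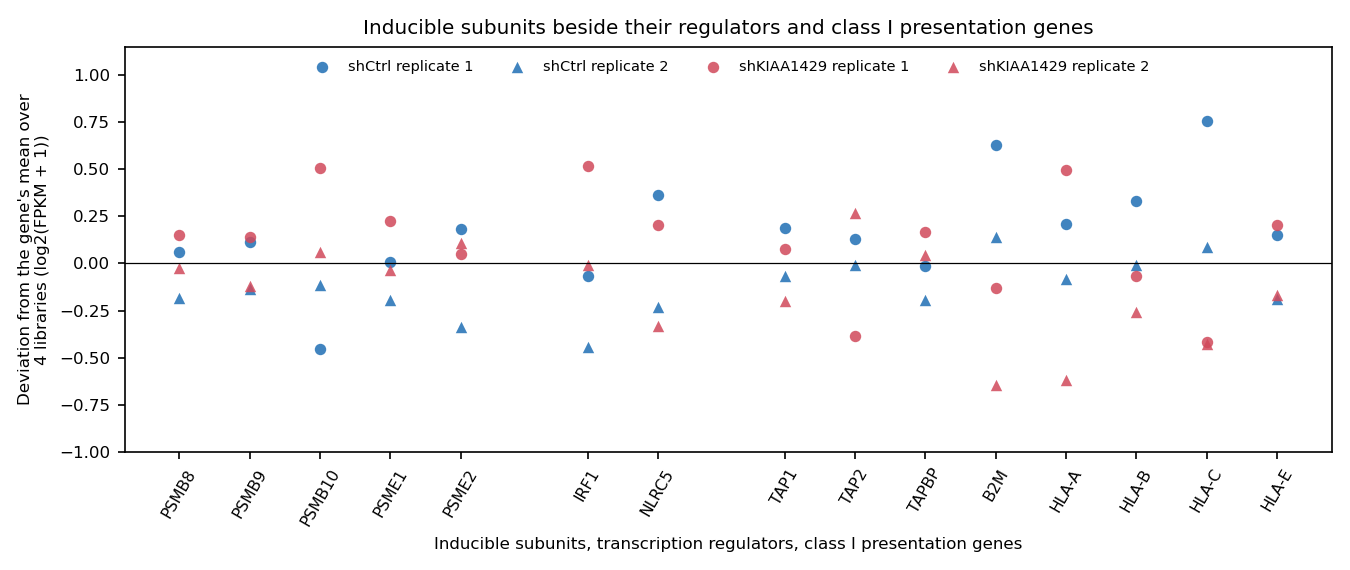
Deviation of each gene from its mean over the 4 libraries, in log2(FPKM + 1), for the 5 inducible subunits, 2 transcription regulators and 8 class I presentation genes. PSMB10, IRF1 and TAPBP have both shKIAA1429 points above both shCtrl points, as do 16.7% of all genes. B2M, HLA-B and HLA-C have both below, as do another 16.7%. The other genes overlap.

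Proteasome-linked genes outside the naming rule and ubiquitin genes completed the comparison. Of 10 linked genes (among them receptors, deubiquitinases and adaptors of the 19S particle), none passed the test and the median was 0.00. KIAA0368, which encodes the adaptor ECM29, stood at 20.8 and 22.5 FPKM (shCtrl) against 27.1 and 27.9 FPKM (shKIAA1429) (log2 fold change 0.33, SE 0.13, limma adjusted p = 0.865), with both knockdown libraries above both controls. TXNL1 (0.07) was the second largest above 0, and the ubiquitin receptor ADRM1 (-0.18) and ZFAND5 (-0.11) were the lowest. Of 15 ubiquitin, shuttle and segregase genes, none passed and the median was 0.02. UBB, a polyubiquitin gene, stood at 114 and 131 FPKM (shCtrl) against 159 and 172 FPKM (shKIAA1429) (log2 fold change 0.43, SE 0.13, limma adjusted p = 0.761). The shuttle factor RAD23B (-0.38) and the segregase cofactor NPLOC4 (-0.27) had the lowest values. UBB was thus higher, and RAD23B and NPLOC4 lower, in both knockdown libraries, none of them past the test. Of the 15 genes, 3 were higher and 3 lower in both knockdown libraries, beside 16.7% of all genes in each direction. Of the 10 linked genes, 1 was higher and 0 lower.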

How the data were processed

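Poly(A) RNA of HCCLM3 cells was sequenced in 2 shCtrl and 2 shKIAA1429 libraries, grouped by their titles. Per the file headers, the authors deposited FPKM per annotated transcript on GRCh37 (hg19; Bowtie2 2.1.0 in the submitters' processing notes); the tool that gave the FPKM is not given in the sources used here, and read counts were not used here. FPKM shares each library's total among genes, so abundant RNAs shift the rest. Protein-coding rows were summed per gene, genes with at least 1 FPKM in at least 2 libraries were kept, and log2(FPKM + 1) was compared by group with limma 3.58.1 in R 4.3.3 (trend, two-sided, Benjamini-Hochberg). The script was tested on simulated data. Overlapping genes and antisense genes are uncertain, since strand use is not stated.

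Proteasome genes, lists and tests were chosen with earlier results of these data known. Full values are given for the inducible subunits and their counterparts, PSME3, PSME4, PSMF1, POMP, PSMD4, PSMD14, and the 4 largest rises and 4 largest falls among PSMC and PSMD genes with a mean of at least 5 FPKM; for partner lists, the 2 largest differences each way, except genes that are not reported here. Other genes named (PSMB3, PSMB4, PSMA4, PSMA5, PSMA7, PSMC6, PSMD3 and the like) were chosen after their values were seen. Promoter windows came from RefSeq (GRCh38.p14) and row structures from GENCODE 44. Alternatives were another scaling, filter, pseudocount, summing of all rows, a replicate block, row-by-row tests (added after seeing the data) and leaving out each library.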

Additional observations from a re-analysis of the deposited data

Results flagged for a closer look

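A row outside the main measurement was flagged for PSMD2. Its only row that is not protein-coding, PSMD2-212, was left out of the summed values and averaged 1.998 FPKM over the 4 libraries, against 60.1 FPKM for the coding rows. It stood at 1.28 and 1.28 FPKM (shCtrl) against 3.78 and 1.65 FPKM (shKIAA1429), above both controls in both knockdown libraries, with shKIAA1429 replicate 1 the highest. The row was flagged for lying above both controls, as 16.7% of all genes did. Tested as a row, it did not pass (limma, adjusted p = 0.973). Of its 590 exonic bases, 29 lie in no other listed row of the gene.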

How the results depend on the processing

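No proteasome gene passed both thresholds under any alternative run. The number with an unadjusted p under 0.05 was 1 with upper quartile scaling, 1 with median centring, and 0 to 2 when a library was left out (0 without shCtrl replicate 2). Same-numbered libraries deviated together with r = 0.298 across genes, but only 2 pairs exist and no label ties them, so the numbers were not taken to pair the samples; with a replicate block the number was 4. Over all genes, 139 passed on fold alone, and 0 to 1 passed both thresholds when a library was left out (1 without shCtrl replicate 1). The share of proteasome genes below 0 was 61.7% with upper quartile scaling, beside 48.1% of all genes. Without shKIAA1429 replicate 1 it was 38.3%, beside 47.8% of all genes.

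The median of the constitutive subunits ran from -0.186 to 0.0178 when a library was left out, above 0 without shKIAA1429 replicate 1, and that of the inducible subunits from 0.00038 to 0.291. PSMF1 turned to 0.0112 with upper quartile scaling, 0.0038 with median centring and 0.0086 with all rows summed, and PSMD14 to 0.0121 and 0.0044 with the first 2 of these. Of 21 genes given in full, 12 kept their sign throughout and 7 changed it only when a library was left out. Those changing ranged from -0.108 to 0.152 for PSMB9, -0.102 to 0.417 for PSME2, -0.0112 to 0.255 for PSMB5, -0.312 to 0.0151 for PSME4, -0.155 to 0.135 for PSMF1, -0.278 to 0.0952 for POMP, -0.175 to 0.156 for PSMD14, -0.0521 to 0.0927 for PSMD4 and -0.0015 to 0.118 for PSMD8. Among those that kept it, the range was -0.94 to -0.39 for PSME3, 0.35 to 0.79 for PSMB10, -0.57 to -0.15 for PSMD1, -0.48 to -0.16 for PSMC4, -0.42 to -0.12 for PSMC5, 0.16 to 0.36 for PSMD2, 0.06 to 0.27 for PSMD10, 0.00 to 0.25 for PSMB8, 0.06 to 0.32 for PSME1, -0.14 to -0.05 for PSMB6, -0.27 to -0.13 for PSMB7 and -0.39 to -0.29 for PSMD7. The cause of these changes was not tested.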
